A study of Mus musculus and Homo sapiens with 8 samples.

Results

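Histone genes were followed in RNA-seq of small intestinal crypts, the epithelial pockets that hold the dividing cells of the gut. The set held every gene of the deposited expression table whose symbol began with Hist1h, Hist2h, Hist3h, Hist4h, H2af or H3f, together with H1f0 and H1fx. That gave 26 of the 13359 distinct genes in the table, of which 15 were clustered histone genes and 11 were variants. The study set 2 libraries labelled Zmynd8_KOmin, from Apc Min mice in which Zmynd8 is labelled as deleted in the intestinal epithelium, against 2 control libraries labelled WTmin, from Apc Min mice. All mice were C57BL/6, untreated and 2 months old, all carried the Apc Min mutation, and each library pooled equal masses of RNA from 3 mice. What drives the epithelial deletion is not stated in the labels. ChIP-seq of the human colorectal cancer line HCT116 in the same series was not analysed here.

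DNA in the nucleus is wrapped around octamers of the core histones H2A, H2B, H3 and H4 and is clasped by the linker histone H1. Replication-dependent histones are encoded in gene clusters without introns, are transcribed mainly in S phase, and give mRNAs that end in a stem-loop instead of a poly(A) tail; some of the clustered genes also give polyadenylated mRNA in cells that have left the cycle. Variant histones are encoded by separate genes whose mRNAs are for the most part polyadenylated and are made outside S phase as well. In the crypt, cells divide near the base and differentiate as they move up towards the villus. The deleted gene, Zmynd8, encodes a chromatin protein that reads acetylated and methylated histone tails. The labels name an NEBNext Ultra RNA kit, and they do not say whether poly(A) RNA was selected.

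Values are FPKM, the reads of a gene scaled by its length and by the library's total. The library totals behind them ran from 44718091 to 48778712 reads. Zmynd8 itself measured 7.30 and 7.65 FPKM in the libraries labelled knockout, against 6.94 and 4.73 FPKM in the controls (log2 fold change 0.33, 95% interval -0.13 to 0.79, limma adjusted p = 0.293). The targeted gene was thus not lower in the libraries labelled knockout at the level of the whole gene, so every direction given here rests on the labels. In the log2 values of all genes tested, the median fold change was -0.15, and scaling the libraries by median ratios brought it to -0.0057, so fold changes are read beside that shift.

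RefSeq (GRCm38.p6) annotates 67 protein-coding clustered histone genes, and 15 of them (22.4%) were in the table, which lists only genes with a mean of at least 1 FPKM in a group. By family these were 1 of 6 H1 genes, 5 of 18 H2A genes, 5 of 18 H2B genes, 2 of 12 H3 genes and 2 of 13 H4 genes; the others were not analysed here. The clustered members lay on chromosome 13 (11 genes, 21750145 to 23739531), chromosome 3 (3 genes, 96221072 to 96247348) and chromosome 11 (1 gene). For 14 of the 15 clustered members the length behind the FPKM value equalled the whole span of the gene, as for a gene without introns. The exception was Hist1h2bc, whose span is 8282 bases and whose length was 774 bases. Among the variants 5 of 11 had a length equal to the span.

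The RefSeq table of promoters held 22 of the 26 members, 13 clustered genes and 9 variants. The 250 bases before each start site are shown for 6 of them: Hist1h2bg, which shares its upstream stretch with the divergent gene Hist1h2ae; Hist1h2ap and Hist1h1c, the most abundant clustered H2A and H1 genes; H2afz and H2afv, which encode H2A.Z and lay on opposite sides of 0; and H1f0, a variant linker histone gene that lay above 0. Capitals mark, on either strand, the CCAAT box, the TATA box written as TATAAA, and the octamer of H2B promoters, a site of POU factors, written as ATTTGCAT. The stretches, in GRCm38.p6, were chr13:23571150-23571399 on the plus strand for Hist1h2bg, chr13:21833476-21833725 on the minus strand for Hist1h2ap, chr13:23738557-23738806 on the plus strand for Hist1h1c, chr3:137864237-137864486 on the plus strand for H2afz, chr11:6444444-6444693 on the minus strand for H2afv and chr15:79027962-79028211 on the plus strand for H1f0.
Hist1h2bg: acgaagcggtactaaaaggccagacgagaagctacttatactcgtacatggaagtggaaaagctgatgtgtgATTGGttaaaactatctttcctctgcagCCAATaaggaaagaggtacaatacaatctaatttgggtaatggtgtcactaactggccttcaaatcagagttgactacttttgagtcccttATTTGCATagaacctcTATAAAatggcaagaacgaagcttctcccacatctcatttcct
Hist1h2ap: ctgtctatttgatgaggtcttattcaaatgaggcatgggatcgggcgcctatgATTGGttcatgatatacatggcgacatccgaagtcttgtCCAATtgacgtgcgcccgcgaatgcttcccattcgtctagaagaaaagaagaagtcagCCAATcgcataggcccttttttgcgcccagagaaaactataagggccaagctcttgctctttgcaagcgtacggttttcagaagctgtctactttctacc
Hist1h1c: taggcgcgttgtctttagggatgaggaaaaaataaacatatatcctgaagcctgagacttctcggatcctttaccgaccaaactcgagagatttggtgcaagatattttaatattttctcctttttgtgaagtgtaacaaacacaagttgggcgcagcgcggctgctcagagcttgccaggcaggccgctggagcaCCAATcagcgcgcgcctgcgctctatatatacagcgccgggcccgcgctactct
H2afz: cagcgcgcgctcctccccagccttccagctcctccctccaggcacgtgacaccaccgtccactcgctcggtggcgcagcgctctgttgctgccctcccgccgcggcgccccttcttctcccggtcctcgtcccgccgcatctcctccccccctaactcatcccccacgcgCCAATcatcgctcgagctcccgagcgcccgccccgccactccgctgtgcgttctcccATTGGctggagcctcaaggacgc
H2afv: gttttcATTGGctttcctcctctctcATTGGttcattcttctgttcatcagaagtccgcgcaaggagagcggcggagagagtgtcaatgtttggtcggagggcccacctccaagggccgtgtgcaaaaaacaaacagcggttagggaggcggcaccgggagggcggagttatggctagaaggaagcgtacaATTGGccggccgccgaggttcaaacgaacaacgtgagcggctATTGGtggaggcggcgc
H1f0: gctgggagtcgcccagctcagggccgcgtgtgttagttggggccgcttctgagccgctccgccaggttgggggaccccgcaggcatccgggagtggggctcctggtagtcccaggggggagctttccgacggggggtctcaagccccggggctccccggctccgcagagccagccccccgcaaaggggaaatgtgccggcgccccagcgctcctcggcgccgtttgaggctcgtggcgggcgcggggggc
CCAAT or its reverse ATTGG stood in 9 of the 13 clustered promoters and 5 of the 9 variant promoters, against 33.8% of all 32851 RefSeq promoters of that length. TATAAA or TTTATA stood in 5 clustered promoters and 1 variant promoter, that of H3f3b, against 12.4% of all promoters. The H3f3b start site used lay 946 bases from the gene start in the deposited table, inside the gene, and that of H2afy2 239 bases away. The other 20 of the 22 lay within 100 bases. Matches in the H3f3b window may thus not stand before the start of the gene as measured. All 5 clustered H2A and all 3 clustered H2B promoters held CCAAT, the 2 H4 promoters held TATAAA and no CCAAT, and the 2 H3 promoters held neither. ATTTGCAT or ATGCAAAT stood in 3 member promoters, those of Hist1h2bg, Hist1h2ae and H3f3b, against 1.6% of all promoters, and the first pair share 1 copy. The CCAAT and TATAAA matches of Hist1h2bg and Hist1h2ae are likewise the same bases read on opposite strands, so the clustered counts of each motif include that stretch for both genes. The start sites of Hist1h2ae and Hist1h2bg are separated by a gap of 179 bases, and their 300-base windows shared an identical run of 279 bases on opposite strands. Windows of Hist1h2ao and Hist1h2ap shared an identical run of 200 bases and those of Hist2h3c1 and Hist2h3c2 one of 231 bases. Genes of 1 histone family are also known to have near-identical coding sequences. Because the authors' counting could split reads between such genes, single clustered genes are uncertain, and family sums are given as well. A match to these letters is a description of the window and not a bound site.

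None of the 25 members tested passed the limma test at an adjusted p under 0.05, against 0.726% of the 12948 genes tested (0.595% higher and 0.131% lower). Of the clustered members 14 of 15 were tested and of the variants 11 of 11. The smallest adjusted p was 0.109, for Hist1h2ao. At an unadjusted p under 0.05 there were 3 members lower (Hist1h2ao, H3f3b and H2afx, against 19.1% of all genes) and 1 higher (H1f0, against 7.49%), or 4 of the 25 members tested, against 26.6% of all genes tested in either direction. By limma-voom on whole reads recovered from the FPKM values no member passed either, and over all 12 other settings the smallest adjusted p of any member was 0.0608. In the authors' deposited table every member had a q-value of 1, while 2.13% of all genes had one under 0.05. A p that misses the threshold does not show equal levels. The 95% intervals given below are for single genes, unadjusted, and on the log2(FPKM + 1) scale. For low genes that scale understates the change, so their intervals do not bound the difference in level. Hist3h2ba, for example, stood at -1.22 by limma-voom, outside its interval of -1.18 to 0.08.

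**Figure D1:**
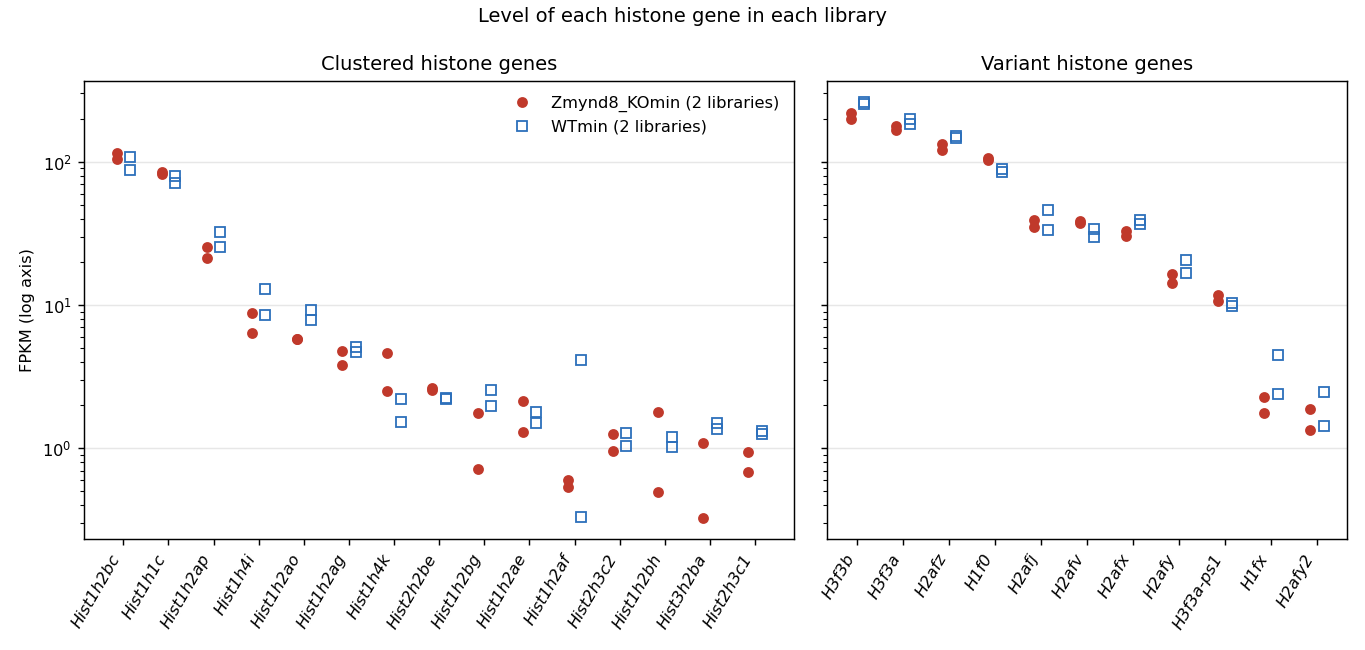
Level of each of the 26 histone genes in FPKM on a log axis, with red circles for the 2 Zmynd8_KOmin libraries and open blue squares for the 2 WTmin libraries. In every library H3f3b is the highest of the variants, and among the clustered genes Hist1h2bc and Hist1h1c stand far above the others.

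Variants held most of the histone RNA measured over the listed genes. Their summed level was 761 and 738 FPKM in the libraries labelled knockout and 842 and 814 FPKM in the controls, and the summed level of the clustered genes was 243 and 251 FPKM in the libraries labelled knockout and 242 and 239.7 FPKM in the controls. Variants thus made up 75.8% and 74.6% of the summed histone FPKM in the libraries labelled knockout, against 77.7% and 77.2% in the controls. The shares did not overlap between groups, and every library took about the same part of its histone level from variants. They cover listed genes only, and 15 of the 67 annotated clustered genes were listed. Whether poly(A) RNA was selected is not stated, so the share of variants in the cells themselves is not known. Clustered genes other than Hist1h2bc and Hist1h1c summed to 53.8 and 55.0 FPKM in the libraries labelled knockout, against 63.8 and 72.4 FPKM in the controls. That sum includes Hist1h2af, Hist3h2ba and Hist2h3c1, which are listed through their control means alone, so part of a lower value was built in. The sums of the variants and of these other clustered genes were apart as deposited and overlapped after median-ratio scaling. The sum of all clustered genes was higher in both libraries labelled knockout under both scalings. After median-ratio scaling it was 252 and 273 in the libraries labelled knockout and 220 and 234 in the controls. The sum of all members went from lower in both to higher in both with that scaling. Hist1h2bc and Hist1h1c made up 77.9% and 78.1% of the clustered level in the libraries labelled knockout, against 73.6% and 69.8% in the controls.

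Hist1h2bc, which encodes an H2B, was the most abundant clustered gene. It measured 104 and 114 FPKM in the libraries labelled knockout, against 107 and 87.9 FPKM in the controls. The groups overlapped (log2 fold change 0.17, SE 0.14, 95% interval -0.19 to 0.52, limma adjusted p = 0.461). After median-ratio scaling both libraries labelled knockout were above both controls, with a log2 fold change of 0.34. Hist1h1c, which encodes a linker histone, measured 84.9 and 82.2 FPKM in the libraries labelled knockout, against 70.7 and 79.4 FPKM in the controls. Both libraries labelled knockout were above both controls, by little (0.15, 95% interval -0.12 to 0.43, limma adjusted p = 0.388). Its promoter, shown above, held CCAAT once, 54 bases before the start. Hist2h2be, another H2B gene, measured 2.54 and 2.66 FPKM in the libraries labelled knockout, against 2.26 and 2.22 FPKM in the controls (0.15, 95% interval -0.18 to 0.48).

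Of the 4 clustered H2A genes tested 3 had negative fold changes, and 1 was lower without overlap, against 48.5% of all genes tested. Their median was -0.23, and -0.07 after median-ratio scaling. Hist1h2ap measured 25.4 and 21.2 FPKM in the libraries labelled knockout, against 25.3 and 32.1 FPKM in the controls. The groups overlapped, and control replicate 2 was the highest (-0.29, SE 0.16, 95% interval -0.69 to 0.12, limma adjusted p = 0.295). Hist1h2ao, with which it shares upstream sequence, measured 5.76 and 5.78 FPKM in the libraries labelled knockout, from 148 and 153 reads, against 7.86 and 9.21 FPKM in the controls, from 194 and 248 reads. The groups did not overlap (-0.49, SE 0.12, 95% interval -0.79 to -0.19). As a pair, which depends less on how reads were split, Hist1h2ap and Hist1h2ao summed to 31.2 and 26.98 FPKM in the libraries labelled knockout and 33.2 and 41.3 FPKM in the controls, apart as deposited and overlapping after median-ratio scaling. Hist1h2ag measured 4.78 and 3.80 FPKM in the libraries labelled knockout, against 4.74 and 5.08 FPKM in the controls, with the groups overlapping (-0.17, 95% interval -0.53 to 0.20). Hist1h2ae measured 1.31 and 2.13 FPKM in the libraries labelled knockout, against 1.80 and 1.51 FPKM in the controls (0.02, 95% interval -0.48 to 0.52).

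The low clustered genes carried wide intervals. Hist1h2bg, the H2B gene across the shared promoter from Hist1h2ae, measured 1.76 and 0.719 FPKM in the libraries labelled knockout, from 38 and 16 reads, against 1.98 and 2.56 FPKM in the controls, from 41 and 58 reads (-0.58, 95% interval -1.27 to 0.11). In the second knockout-labelled library Hist1h2bg was at its lowest and Hist1h2ae at its highest, so the levels on either side of the shared stretch did not move together there. Hist3h2ba, an H2B gene on chromosome 11, measured 0.325 and 1.08 FPKM in the libraries labelled knockout, against 1.36 and 1.51 FPKM in the controls (-0.55, 95% interval -1.18 to 0.08). Hist1h2bh measured 0.494 and 1.80 FPKM in the libraries labelled knockout, which span both control values of 1.20 and 1.02 FPKM (-0.04, 95% interval -0.91 to 0.82). For these genes the libraries labelled knockout differed from each other more than the controls did.

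The H4 genes lay on opposite sides of 0. Hist1h4i measured 6.34 and 8.74 FPKM in the libraries labelled knockout, against 12.9 and 8.50 FPKM in the controls (-0.44, SE 0.25, 95% interval -1.09 to 0.21, limma adjusted p = 0.307). Control replicate 1 was the high value and the groups overlapped. Hist1h4k measured 2.52 and 4.64 FPKM in the libraries labelled knockout, from 48 and 91 reads, against 1.53 and 2.21 FPKM in the controls, from 28 and 44 reads. Its groups did not overlap (0.65, SE 0.27, 95% interval -0.07 to 1.36, limma adjusted p = 0.213). Of the H3 genes, Hist2h3c1 measured 0.679 and 0.941 FPKM in the libraries labelled knockout, against 1.31 and 1.27 FPKM in the controls (-0.34, 95% interval -0.72 to 0.04), and Hist2h3c2, with which it shares upstream sequence, measured 1.26 and 0.963 FPKM in the libraries labelled knockout, against 1.27 and 1.04 FPKM in the controls (-0.03, 95% interval -0.43 to 0.36). Hist2h3c1 passed the filter through its controls alone, so a lower value was built into its being tested. The means of 3 members in the libraries labelled knockout were under 1 FPKM (Hist1h2af, Hist3h2ba and Hist2h3c1), which the table lists through the control mean, and no member was listed through the knockout-labelled mean alone.

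**Figure D2:**
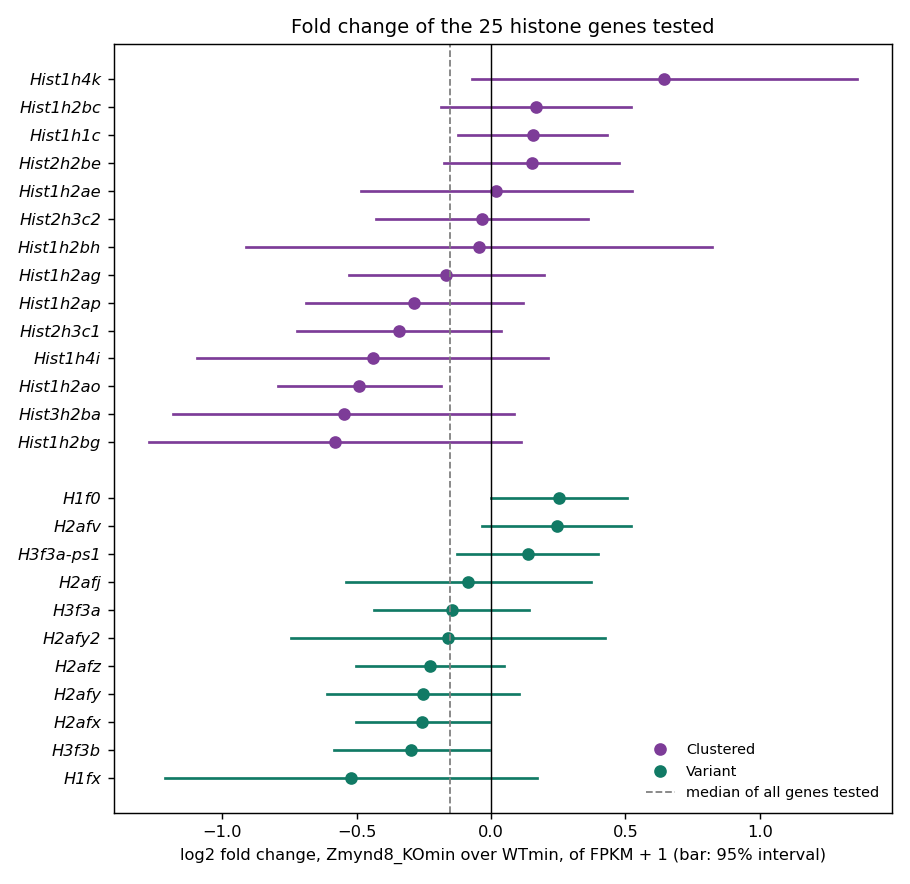
Log2 fold change, Zmynd8_KOmin over WTmin, on the log2(FPKM + 1) scale for the 25 histone genes tested, with bars for limma's 95% interval, a solid line at 0 and a dashed line at -0.15, the median of all genes tested. Bars of 21 of the 25 genes include 0, and clustered and variant genes both lie on either side of the dashed line.

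Summed by family, clustered H1 measured 84.9 and 82.2 FPKM in the libraries labelled knockout, against 70.7 and 79.4 FPKM in the controls, and rested on Hist1h1c alone. Clustered H2A summed to 37.9 and 33.4 FPKM in the libraries labelled knockout and 40.1 and 52.1 FPKM in the controls, a log2 ratio of means of -0.37. Clustered H2B summed to 109 and 121 FPKM in the libraries labelled knockout and 114 and 95.2 FPKM in the controls, a log2 ratio of 0.13. Clustered H3 summed to 1.94 and 1.90 FPKM in the libraries labelled knockout and 2.59 and 2.31 FPKM in the controls, and clustered H4 to 8.86 and 13.4 FPKM in the libraries labelled knockout and 14.4 and 10.7 FPKM in the controls. As deposited, the groups did not overlap for H1, H2A and H3 and overlapped for H2B and H4. After median-ratio scaling H2A overlapped, at 39.3 and 36.36 in the libraries labelled knockout and 36.39 and 50.7 in the controls, and H2B stood apart, at 114 and 131 in the libraries labelled knockout and 104 and 92.7 in the controls. H1 and H3 stayed apart under both scalings. The H3 sum includes Hist2h3c1, the H2A sum Hist1h2af and the H2B sum Hist3h2ba. These genes are in the table through their controls alone, which pulls the knockout-labelled sums down by selection. Over the listed genes, the order of the families was the same in all 4 libraries, with H2B first, then H1, H2A, H4 and H3. Most annotated clustered genes are not listed, so the order does not describe whole families.

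**Figure D3:**
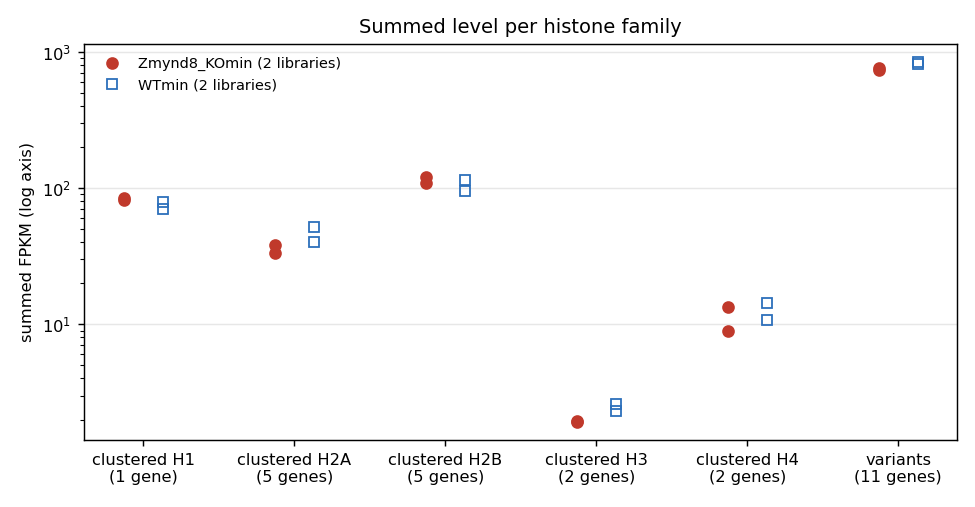
Summed FPKM, on a log axis, of the listed clustered genes of each histone family and of the 11 variants, with red circles for the 2 Zmynd8_KOmin libraries and open blue squares for the 2 WTmin libraries. Clustered H2B and H1 stand near 100 FPKM and clustered H3 near 2 FPKM, while the variants sum to 738 FPKM or more in every library.

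Among the variants, the H3.3 genes were the most abundant. H3.3 differs from the replication-dependent H3 in a few residues and is placed into chromatin throughout the cell cycle by the chaperones HIRA and DAXX. H3f3b measured 218 and 199.9 FPKM in the libraries labelled knockout, against 262 and 252 FPKM in the controls. The groups did not overlap (-0.30, SE 0.11, 95% interval -0.59 to -0.01, limma adjusted p = 0.182). H3f3a, which encodes the same protein, measured 178 and 166 FPKM in the libraries labelled knockout, against 183 and 199 FPKM in the controls (-0.15, 95% interval -0.44 to 0.14). H3f3a overlaps another listed gene on the opposite strand, and any use of strand in counting is not given. After median-ratio scaling the fold change of H3f3b was -0.12 with groups still apart, and that of H3f3a was 0.03 with groups overlapping. The processed pseudogene H3f3a-ps1, whose reads may come from its parent, measured 11.7 and 10.6 FPKM in the libraries labelled knockout and 9.85 and 10.3 FPKM in the controls (0.14, 95% interval -0.13 to 0.40).

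The H2A.Z genes lay on opposite sides of 0. H2A.Z is an H2A variant found at promoters and enhancers, and H2afz and H2afv encode its near-identical isoforms. H2afz measured 122 and 133 FPKM in the libraries labelled knockout, against 152 and 145 FPKM in the controls (-0.23, SE 0.11, 95% interval -0.50 to 0.05, limma adjusted p = 0.242). H2afv measured 38.4 and 37.6 FPKM in the libraries labelled knockout, against 34.2 and 29.7 FPKM in the controls (0.24, SE 0.11, 95% interval -0.03 to 0.52, limma adjusted p = 0.219). Within a library, H2afz was 3.17 and 3.53 times as abundant as H2afv in the libraries labelled knockout, against 4.45 and 4.89 times in the controls. This ratio does not depend on how libraries are scaled. It was picked after the values were seen, and 2 libraries against 2 cannot give an exact two-sided permutation p below 0.333. Their promoters, shown above, both held CCAAT, 2 copies in H2afz and 4 in H2afv, and shared no identical run over 8 bases.

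**Figure D4:**
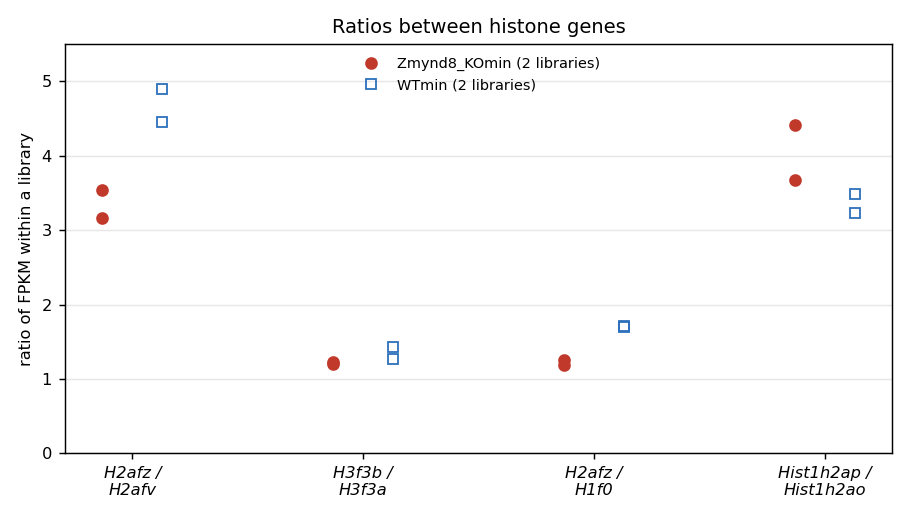
Ratio of FPKM between pairs of histone genes within each library, with red circles for the 2 Zmynd8_KOmin libraries and open blue squares for the 2 WTmin libraries. H2afz over H2afv lies at 3.17 and 3.53 in Zmynd8_KOmin and at 4.45 and 4.89 in WTmin, and H2afz over H1f0 at 1.18 and 1.26 in Zmynd8_KOmin and at 1.70 and 1.71 in WTmin.

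H1f0 encodes a linker histone known to accumulate in cells that stop dividing and differentiate. It measured 103 and 106 FPKM in the libraries labelled knockout, against 89.7 and 85.1 FPKM in the controls. Both libraries labelled knockout were above both controls (0.25, SE 0.10, 95% interval 0.00 to 0.50, limma adjusted p = 0.188). The fold change of H2afv was within the SE of this one, and it was above it after quantile normalization. Set against H2afz within a library, H1f0 gave ratios of H2afz over H1f0 of 1.18 and 1.26 in the libraries labelled knockout and 1.70 and 1.71 in the controls. That pair, too, was picked after the values were seen, and the ratio of H1f0 to Hist1h1c overlapped, at 1.21 and 1.29 in the libraries labelled knockout and 1.27 and 1.07 in the controls. H1fx, another linker histone gene, measured 2.27 and 1.77 FPKM in the libraries labelled knockout, against 4.49 and 2.39 FPKM in the controls, with control replicate 1 apart from the other libraries (-0.52, 95% interval -1.21 to 0.17). The difference rested on that library: the fold change was -0.18 without it.

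The remaining variants were H2A genes. H2afx, whose product is phosphorylated at DNA breaks, measured 30.4 and 32.8 FPKM in the libraries labelled knockout, against 37.0 and 38.9 FPKM in the controls. The groups did not overlap as deposited (-0.26, SE 0.10, 95% interval -0.50 to -0.01, limma adjusted p = 0.181) and overlapped after median-ratio scaling. H2afy, which encodes a macroH2A, a variant with a large globular tail domain linked to silenced chromatin, measured 16.6 and 14.3 FPKM in the libraries labelled knockout, against 20.6 and 16.7 FPKM in the controls (-0.25, 95% interval -0.61 to 0.11). H2afy2, the other macroH2A gene, measured 1.34 and 1.89 FPKM in the libraries labelled knockout, against 2.46 and 1.43 FPKM in the controls (-0.16, 95% interval -0.74 to 0.42). It overlaps Aifm2 on the opposite strand, and since any use of strand in counting is not given, its value is uncertain. H2afj measured 39.3 and 35.1 FPKM in the libraries labelled knockout, against 46.3 and 33.6 FPKM in the controls (-0.08, 95% interval -0.54 to 0.37). The controls of H2afj and H2afy2 spanned both knockout-labelled values.

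Set beside each other, clustered and variant genes differed little in their medians. The median log2 fold change was -0.11 over the 14 clustered genes tested and -0.16 over the 11 variants, against -0.15 over all genes tested. The difference between the class medians was 0.05, and its sign changed with the filter and with the library left out. The variants include the pseudogene H3f3a-ps1, 1 of those higher in both libraries labelled knockout, and without it their median was -0.19. Negative fold changes made up 9 of the 14 clustered genes and 8 of the 11 variants, against 71.7% of all genes tested, and 7 of 14 and 6 of 11 after median-ratio scaling, against 50.9%. Of the clustered genes tested 4 were lower and 3 higher in both libraries labelled knockout than in both controls, and of the variants 6 were lower and 3 higher, where the shares over all genes were 48.5% lower and 14.9% higher. After median-ratio scaling 3 clustered genes were lower and 4 higher, and 1 variant was lower and 3 higher, against 28.0% and 28.2% of all genes tested. The members higher in both libraries under both scalings were Hist1h1c, Hist1h4k, Hist2h2be, H2afv, H1f0 and H3f3a-ps1. Those lower under both were Hist1h2ao, Hist3h2ba, Hist2h3c1 and H3f3b. Hist3h2ba and Hist2h3c1 are listed through their control means alone, so the counts of lower clustered genes were in part built in.

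Most genes that serve histones and the cell cycle stood lower in knockout-labelled crypts, though none passed the limma test over all genes. The lists are not separate. Ccne1 and Ccne2 are in both the mRNA-making and S phase lists, and Chaf1a, Chaf1b and Mcm2 in both the chaperone and S phase lists. Without control replicate 2, the test passed 3 chaperone, 7 S phase and 3 mitosis genes, among 800 of all genes. The counts below stand against shares over all genes tested of 71.7% for a negative fold change, 48.5% for lower without overlap and 19.1% for lower at an unadjusted p under 0.05. After median-ratio scaling, those lower without overlap were 12 of the 22 mRNA-making genes, 16 of the 27 chaperone genes, 28 of the 35 S phase genes and 19 of the 20 mitosis genes, against 28.0% of all genes. Of 22 genes for making and trimming histone mRNA 20 had negative fold changes, around a median of -0.29, 18 were lower in both libraries without overlap, and 10 had an unadjusted p under 0.05, all of them lower. The lowest p values in that list belonged to Cdk2, a kinase that starts S phase, at -0.77 (limma adjusted p = 0.0737), Srrt at -0.38, the cap-binding gene Ncbp1 at -0.42 and the cyclin gene Ccne2 at -0.58. Of 27 histone chaperone and exchange genes 24 were negative, around a median of -0.32, and 14 had an unadjusted p under 0.05. Nasp, which carries H3 and H4, measured 11.7 and 12.4 FPKM in the libraries labelled knockout, against 19.2 and 20.1 FPKM in the controls (-0.66, SE 0.09, limma adjusted p = 0.0641). Chaf1a, a subunit of the complex that places new H3 and H4 behind replication forks, measured 4.36 and 4.60 FPKM in the libraries labelled knockout, against 7.99 and 7.44 FPKM in the controls (-0.67, SE 0.11, limma adjusted p = 0.0737). Ssrp1, of the FACT complex, and Rbbp7, which binds H4, gave -0.57 and -0.53.

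Of 35 S phase and replication genes 34 were lower in both libraries labelled knockout than in both controls, as scaled by the authors, around a median of -0.46. Lig1, Gins2, Gins1 and Mcm5, a ligase gene and helicase genes of the replication fork, gave -0.75, -0.77, -0.89 and -0.69, with limma adjusted p-values of 0.0573, 0.0669, 0.0705 and 0.0737. All 20 genes of the G2 and mitosis list were lower in both libraries, around a median of -0.51, and Cenpa, the centromeric H3 variant in that list, measured 9.09 and 11.1 FPKM in the libraries labelled knockout, against 17.0 and 16.2 FPKM in the controls (-0.67, SE 0.12, limma adjusted p = 0.0848). The clustered histone genes had a median of -0.11, and the 5 of them with a mean of at least 5 FPKM had one of -0.29. That value is the fold change of Hist1h2ap, whose groups overlapped. Those 5 genes ran from -0.49 to 0.17, with 3 negative and 2 positive. The mRNA-making list had a median of -0.29. Whether the histone and S phase genes differ in their change was not tested.

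**Figure D5:**
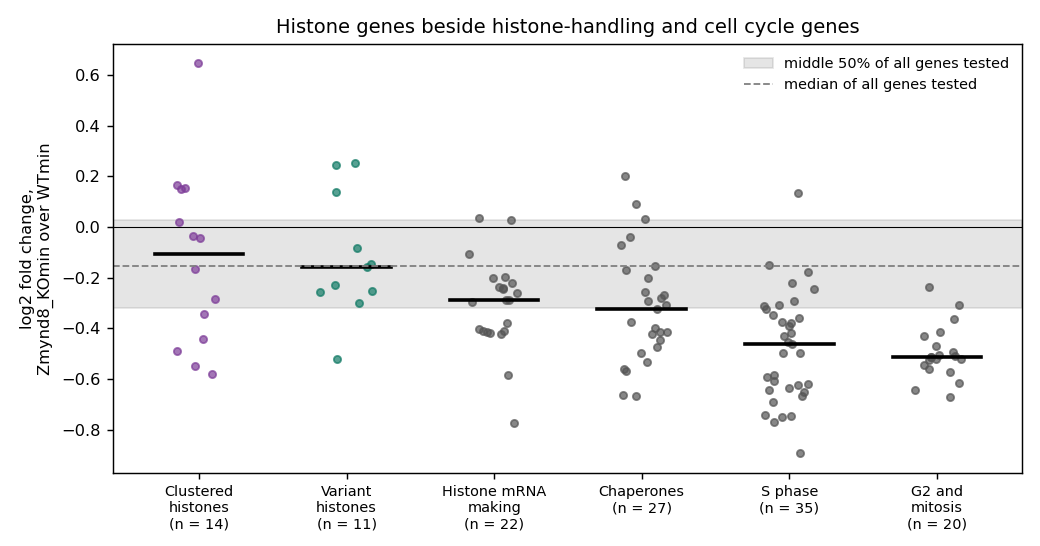
Log2 fold change, Zmynd8_KOmin over WTmin, of each gene tested in the clustered and variant histone groups and in lists of histone-handling and cell cycle genes, with a thick line at each group's median. The grey band, from -0.32 to 0.03, holds the middle 50% of all genes tested, and the histone medians of -0.11 and -0.16 fall inside it while the S phase and mitosis medians of -0.46 and -0.51 fall below it.

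Markers of other cell types were measured beside these genes. The limma test called 3 enterocyte markers higher, 2 Paneth cell and 2 tuft cell markers lower, and none of the goblet, enteroendocrine, lymphocyte, B cell, macrophage, erythroid or stromal markers. Over all genes tested 0.595% were called higher and 0.131% lower. These calls depend on the setting, since 0 genes were called with the replicate number as a block. Counts of negative fold changes stand against 71.7% of all genes tested as deposited and 50.9% after median-ratio scaling. The 20 enterocyte markers all had positive fold changes and summed to 26378 and 30314 FPKM in the libraries labelled knockout, against 16538 and 19043 FPKM in the controls. The 10 Paneth cell markers were all negative and summed to 4794 and 6968 FPKM in the libraries labelled knockout, against 9211 and 10986 FPKM in the controls, and the 35 S phase genes summed to 255 and 256 FPKM in the libraries labelled knockout, against 387 and 347 FPKM in the controls. Of the 11 lymphocyte markers 8 were negative, with sums of 218 and 189.5 FPKM in the libraries labelled knockout and 188 and 294 FPKM in the controls, and of the 11 stromal and endothelial markers 9 were negative, with sums of 312 and 284 FPKM in the libraries labelled knockout and 329.6 and 380.4 FPKM in the controls. The goblet, tuft and enteroendocrine lists had 7 of 8, 6 of 6 and 5 of 10 genes negative. B and plasma cell markers (8 of 8 negative) summed to 614 and 442 FPKM in the libraries labelled knockout and 573 and 582 FPKM in the controls, macrophage markers (5 of 8) to 151 and 132 FPKM in the libraries labelled knockout and 164 and 145 FPKM in the controls, and erythroid markers (5 of 5) to 38.6 and 36.2 FPKM in the libraries labelled knockout and 26.9 and 68.1 FPKM in the controls. The sums overlapped between groups for lymphocyte, B cell, macrophage and erythroid markers. After median-ratio scaling, negative fold changes were 4 of 11 for lymphocyte, 2 of 8 for B cell, 3 of 8 for macrophage, 2 of 5 for erythroid and 6 of 11 for stromal markers, while the enterocyte list kept 0 negative and the Paneth cell list 10 of 10. No marker in the table was at 0 in any library. In such bulk samples fewer cells of a type and less RNA per cell cannot be told apart, and the part of cell composition in the histone values was not tested.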

How the data were processed

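Mouse crypt RNA-seq libraries were analysed, 2 labelled Zmynd8_KOmin and 2 labelled WTmin. The submitters' processing notes name the aligners HISAT2 and BWA, the peak caller SICER, and the mm10 and hg38 assemblies, with no role for any of them; the counting tool and annotation are not stated. The authors deposited 1 value per gene and library, taken here as FPKM since all values equal whole reads divided by a gene length and a library total. Per the file headers, the table also holds the authors' group means, log2 fold changes, p-values and q-values, from a test that is not stated. Of 13527 entries, 168 exact repeats were dropped. Whole reads were recovered within 0.002 reads for 13359 of 13359 genes, with library totals of 46551218 and 47990019 (Zmynd8_KOmin) and 44718091 and 48778712 (WTmin).

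Groups were compared with limma 3.58.1 (R 4.3.3) on log2 of FPKM plus a pseudocount of 1, using trend and robust moderation and genotype as the only term. Genes needed 1 FPKM or more in 2 or more libraries, and p-values were Benjamini-Hochberg adjusted over all genes tested, with a threshold of 0.05. Fold changes on this scale understate the change of low genes. The fit was tested on simulated data with the same spread setting for every gene and no shift over all genes. Those data are simpler than the libraries here, so the simulation does not show how the test performs on them. The labels tie no pool to a separate litter or date, and p-values therefore describe the spread between pools only. Other pseudocounts, filters, scalings and moderation, limma-voom on recovered reads, a replicate block and leaving out each library were tried. Members were matched to RefSeq by gene ID (26 of 26). Members and gene lists were chosen with earlier results of these data known. Named genes were all members, Zmynd8 and up to 4 genes of smallest p from each pathway list. Poisson intervals cover counting error only.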

Additional observations from a re-analysis of the deposited data

How the results depend on the processing

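No clustered and no variant histone gene passed the threshold in the 12 other settings run. Most changed 1 choice; dropping trend and robust moderation changed both at once, and limma-voom changed the input values, offset and weights together. The count over all genes was 94, and it was 1 without a filter, 2 with a filter at a mean of 5 FPKM, 11 without trend or robust moderation, 0 with the replicate number as a block, and 0 to 800 with a library left out (0 without either Zmynd8_KOmin library, 800 without WTmin replicate 2). With a library left out, counts ran from 0 to 3 for the chaperone list, 0 to 7 for the S phase list and 0 to 3 for the mitosis list, all of them called without WTmin replicate 2; the lone library of a group is then assumed to vary like the other group. The shared replicate numbers were not treated as pairs, since differences between numbers correlated at r = 0.0452 across genes between the groups.

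The clustered median of -0.11 was -0.19 at a pseudocount of 0.1, -0.17 without a filter, -0.29 at the filter of 5 FPKM and for the members above it, 0.014 after median-ratio scaling, -0.0058 after quantile normalization, -0.21 by limma-voom, and -0.18 to -0.076 with a library left out. The variant median of -0.16 was -0.044 after median-ratio scaling and -0.26 to -0.11 with a library left out. Their difference of 0.05 was -0.14 at the filter of 5 FPKM, -0.13 with clustered members above it, 0.12 after quantile normalization, and -0.027 to 0.14 with a library left out. After median-ratio scaling the log2 ratios of summed levels were 0.33 for H1, 0.32 for H2B, -0.17 for H3, 0.21 for all clustered genes and 0.033 for the variants, against 0.15, 0.13, -0.35, 0.04 and -0.14 as deposited; that of H2A was -0.20, against -0.37. With a library left out these ratios ran from 0.073 to 0.24 for H1, -0.55 to -0.17 for H2A, 0.0096 to 0.27 for H2B, -0.43 to -0.27 for H3 and -0.50 to 0.092 for H4. Fold changes that changed sign were those of Hist1h2ag (0.0028) after quantile normalization, Hist2h3c2 after median-ratio scaling (0.059) and quantile normalization (0.062), and Hist1h2bh (0.050), H3f3a (0.029) and H2afj (0.087) after median-ratio scaling. With a library left out, Hist1h2ae ran from -0.20 to 0.24, Hist2h3c2 from -0.13 to 0.067, Hist1h2bh from -0.50 to 0.41, H2afj from -0.31 to 0.14 and H2afy2 from -0.41 to 0.095. Few reads limit the low clustered genes, and the causes of these moves were not tested.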

Other observations

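Hist1h2af, a clustered H2A gene that was not tested because it reached 1 FPKM in 1 library only, measured 0.597 and 0.534 FPKM in the libraries labelled knockout and 0.334 and 4.16 FPKM in the controls. These values rested on 13 and 12 reads in the libraries labelled knockout and on 7 and 95 reads in control replicates 1 and 2, with exact 95% Poisson intervals of 2.81 to 14.4 reads and 76.9 to 116 reads in the controls. Control replicate 2 alone set the direction: the authors' deposited table gives a log2 fold change of -1.99, while control replicate 1 was below both libraries labelled knockout. Hist1h2bh, the nearest listed member at 8544 bases, stood at 1.02 FPKM in control replicate 2 and 1.20 FPKM in control replicate 1. Hist1h2ap, Hist1h2ao and Hist1h2ag, clustered H2A genes elsewhere on chromosome 13, were also highest in control replicate 2. Hist1h2ae, the remaining listed H2A gene of the clusters, was highest in a library labelled knockout.

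The ratio of H3f3a-ps1 to its parent H3f3a was 0.0659 and 0.0640 in the libraries labelled knockout and 0.0538 and 0.0519 in the controls, and the ratio of H3f3b to H3f3a was 1.22 and 1.20 in the libraries labelled knockout and 1.43 and 1.27 in the controls. Neither ratio overlapped between groups, and both were picked after the values were seen.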
